A study of Mus musculus with 12 samples.

Results

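The 51 genes described here are the amino acid transporters among the 23378 genes of the deposited count table. They were taken by symbol from the solute carrier (Slc) families 1, 3, 6, 7, 36, 38 and 43, leaving out symbols that end in -ps or os. The rule uses no measured value, but it was set with earlier results of these data known. The samples were cells sorted from the kidney cortex of C57BL/6 mice. All animals carried a CreERT2 recombinase driven by the neuronal nitric oxide synthase gene (nNOS) together with the mTmG reporter, in which cells turn from red tdTomato to green GFP once the recombinase has acted. Green cells were collected as macula densa cells, and the most intensely red cells were collected as control cells, which the labels describe as epithelium of the distal tubule and collecting duct. Mice were fed a control diet, or a diet low in salt together with enalapril, which blocks angiotensin-converting enzyme, at 150 mg/L in the drinking water, for 14 days. Macula densa cells gave 2 libraries per diet and control cells gave 4 per diet. Each macula densa library shares a number in its description with 1 control-cell library, and the main fit does not pair them. The labels give no age, and none of them says that each library came from a separate animal, so the p-values below measure only the spread between these libraries.

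Macula densa cells are a small plaque of salt-sensing epithelium where the thick ascending limb meets its own glomerulus, and they signal to the renin-secreting cells and vessels beside them. Amino acid transporters move single amino acids across plasma, lysosomal or vesicle membranes, some driven by sodium or protons and others as exchangers that swap one amino acid for another. In the kidney they are best known from the proximal tubule, where apical carriers take filtered amino acids out of the tubular fluid and basolateral exchangers, paired with a heavy chain, hand them on to the blood. Other members supply cells with arginine for nitric oxide and polyamines, with glutamine and glutamate for metabolism, or with taurine as an osmolyte.

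Total counts per library ranged from 4259020 to 14856542, of which nuclear protein-coding genes held 781257 to 2331481. A single gene, Gm42418, held 53.45% to 58.95% of the total in macula densa libraries and 58.85% to 64.96% in control-cell libraries. It stays in the totals used for scaling, and an alternative fit left it out together with mitochondrial genes. The 51 transporters together held 1066 to 3981 counts per library, or 0.117% to 0.174% of the protein-coding counts, so many of them rest on few reads. Levels are given as CPM, counts divided by the TMM-scaled library total and multiplied by 1000000, and 3 counts in a library corresponded to 0.231 to 0.734 CPM. The sort labels were checked against Nos1, the gene that drives the recombinase, which lay between 100 and 232 CPM in the 4 macula densa libraries and between 0.109 and 0.734 CPM in the 8 control-cell libraries. The control cells were not only tubule: summed CPM of 7 podocyte markers ran from 42.5 to 1427 in them and summed CPM of 9 endothelium markers from 51.6 to 1520. Control-cell replicate 4 on control diet stood apart from the others of its group, with the lowest of those sums and the highest sum of 8 principal cell markers (900 CPM, against 134 to 463 CPM in the other 3). Thick ascending limb markers were also highest there (1660 CPM, against 220, 310 and 1058 CPM in replicates 1, 2 and 3). So were distal convoluted and connecting tubule markers (933 CPM) and intercalated cell markers (383 CPM). Results that rest on this library are given with and without it. In bulk samples such as these, fewer cells of a type and less RNA per cell cannot be told apart.

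For 4 of the transporters that differed between the cell populations, the bases just upstream of the RefSeq transcription start are shown, because Slc1a3, Slc7a8 and Slc38a10 were higher in macula densa cells together while Slc7a1 was lower. The set of RefSeq promoters used here held at least 1 start for 35 of the 51 members. Slc7a1 had more than 1, and the start farther upstream was used because the other lies within the gene. Coordinates are in GRCm38.p6, all 4 genes lie on the minus strand, and each sequence runs 5′ to 3′ toward the gene. Capitals mark every match, on either strand, to 3 common promoter motifs. These were the GC box, spelled GGGCGG and bound by Sp1, the TATA box, spelled TATAAA and bound by the general initiation machinery, and the CCAAT box, spelled as its name and bound by nuclear factor Y. An E box (CACGTG), an amino acid response element core (TGATGNAA), an HNF1 core (GTTAAT) and a nuclear receptor core (AAGGTCA) were also searched. The 250 bases upstream were used, except for Slc7a8, where 190 bases are printed because the 60 nearest its start belong to the gene in the GENCODE M21 annotation. The Slc38a10 stretch lies within an exon of Gm11769, a processed transcript of the opposite strand.
Slc1a3, chr15:8710808-8711057: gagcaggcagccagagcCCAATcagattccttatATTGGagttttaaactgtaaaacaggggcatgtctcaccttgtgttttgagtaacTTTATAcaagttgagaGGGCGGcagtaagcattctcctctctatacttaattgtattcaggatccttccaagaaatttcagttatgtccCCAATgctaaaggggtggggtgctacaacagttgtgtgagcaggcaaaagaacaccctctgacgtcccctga
Slc7a8, chr14:54781947-54782136: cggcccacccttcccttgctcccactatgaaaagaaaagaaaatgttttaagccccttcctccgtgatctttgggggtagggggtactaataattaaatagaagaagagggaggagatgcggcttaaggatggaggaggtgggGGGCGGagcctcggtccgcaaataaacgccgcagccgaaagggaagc
Slc38a10, chr11:120151352-120151601: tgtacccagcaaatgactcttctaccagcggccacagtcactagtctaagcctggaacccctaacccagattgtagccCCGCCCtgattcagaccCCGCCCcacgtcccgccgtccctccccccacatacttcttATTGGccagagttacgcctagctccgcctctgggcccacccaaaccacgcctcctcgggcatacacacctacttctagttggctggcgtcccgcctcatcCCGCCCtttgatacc
Slc7a1, chr5:148399905-148400154: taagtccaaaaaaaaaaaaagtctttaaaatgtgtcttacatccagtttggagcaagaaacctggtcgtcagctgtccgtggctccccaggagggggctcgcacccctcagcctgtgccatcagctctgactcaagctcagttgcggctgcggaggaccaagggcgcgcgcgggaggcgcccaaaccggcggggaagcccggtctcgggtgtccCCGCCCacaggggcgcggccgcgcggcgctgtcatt
Each of the 4 held at least 1 GC box, a match found in 32.7% of 32851 RefSeq promoters over the same 250 bases. The Slc1a3 and Slc38a10 stretches also held a CCAAT box, found in 33.8% of promoters. Among these 4 stretches only that of Slc1a3 held a TATA box, found in 12.4%, and it read on the opposite strand. The 250 bases upstream of the other RefSeq start of Slc7a1, which are not printed, also held a TATA box. The TATA box thus does not set Slc1a3 apart from Slc7a1. None of the 4 held the E box, the amino acid response core, the HNF1 core or the nuclear receptor core, which were found in 6.02%, 3.45%, 6.43% and 4.08% of promoters. GC content ran from 44.8% in Slc1a3 over 55.6% in Slc7a8 and 60.4% in Slc38a10 to 62.4% in Slc7a1, against a median of 52.4% over all promoters. These matches describe the letters only.

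The first question was which transporters set macula densa cells apart from control cells. The proline carrier Slc6a7, the glutamate carrier Slc1a3, the exchanger Slc7a8, the aspartate and glutamate exchanger Slc7a13 and the carrier Slc38a10 were higher in macula densa cells when averaged over both diets. The taurine carrier Slc6a6, the arginine carrier Slc7a1, the nucleobase carrier Slc43a3 and the apical carrier Slc6a18 were lower. These 9 were the members past an adjusted p of 0.05 among 35 tested (5 higher, 4 lower), where 21.3% of all 14180 genes tested passed (7.48% higher and 13.9% lower). On control diet alone 6 members passed, 4 higher and 2 lower, against 6.61% of all genes (2.69% higher and 3.92% lower), and they included Slc7a4, an orphan of the cationic carrier family. On low salt with enalapril 3 members passed, 2 higher and 1 lower, against 7.27% of all genes (3.15% higher and 4.13% lower). The test was edgeR's quasi-likelihood test with Benjamini-Hochberg adjustment over all genes tested. The median log2 fold change of the tested members was 0.59 on control diet, -0.26 on low salt with enalapril and 0.13 averaged, against -0.05, -0.06 and -0.06 over all genes tested. Without control-cell replicate 4 on control diet the counts were 11, 6 and 12 members. The count on control diet fell to 1 without macula densa replicate 2, to 2 without macula densa replicate 1 and to 3 without control-cell replicate 2 or 3, all of that diet. The count on low salt with enalapril was 5 without macula densa replicate 1 or 2 on control diet. Scaling by library totals alone moved the median of all genes in the averaged comparison from -0.06 to 0.14. It gave 8 members higher and 4 lower, against 1827 and 1450 of the 14180 genes tested. The part of Gm42418 in this effect of scaling was not tested. The share of all genes called when a library was left out is not given here, so those shifts are not read as particular to the transporters.

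**Figure D1:**
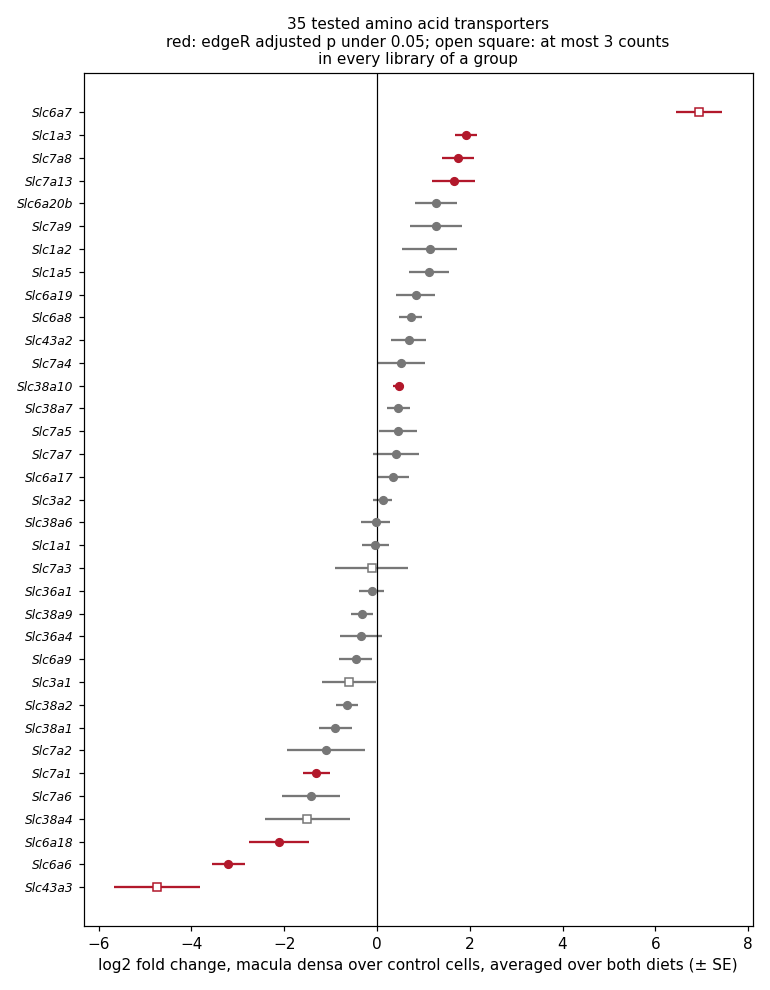
Log2 fold change of macula densa over control cells, averaged over both diets, for the 35 tested transporters on the y axis, with bars of 1 standard error, red where the edgeR adjusted p was under 0.05 and open squares where every library of a group held at most 3 counts. Slc6a7 lies far to the right, Slc6a6 and Slc43a3 far to the left, and most members lie within 2 units of 0.

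Slc6a7, the high-affinity proline carrier known from nerve terminals, was found almost wholly in macula densa libraries. It lies on the minus strand of chromosome 18 from 60995380 to 61014222 (GRCm38, as are all gene positions below). It measured 4.21 and 6.35 CPM in macula densa cells on control diet and 9.58 and 14.8 CPM on low salt with enalapril. In control cells it measured 0, 0, 0.0952 and 0 CPM on control diet and 0.154, 0.245, 0 and 0 CPM on low salt with enalapril. No control-cell library reached the lowest macula densa library. On control diet the macula densa libraries held 119 counts and the control-cell libraries 1 count, a ratio of 216 after scaling with a 95% counting interval from 38.0 to 8601. On low salt with enalapril the counts were 140 and 3, a ratio of 131 with an interval from 43.8 to 641. These intervals cover counting error only. The edgeR adjusted p was 0.000398 on control diet, 0.000193 on low salt with enalapril and 7.39e-06 averaged. In the 3 comparisons the call held under every alternative that kept the gene.

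Slc1a3, the glutamate and aspartate carrier best known from astrocytes, was higher in macula densa cells at an even level. It lies on the minus strand at chr15:8634124-8710764, downstream of the first sequence printed above. It measured 9.44 and 9.29 CPM in macula densa cells on control diet and 8.81 and 8.86 CPM on low salt with enalapril. Control cells measured 2.52, 2.44, 2.57 and 2.69 CPM on control diet and 2.69, 3.18, 0.840 and 2.14 CPM on low salt with enalapril. The 4 macula densa libraries were within 1 CPM of each other and above all 8 control-cell libraries. The log2 fold change was 1.87 ± 0.33 (SE) on control diet, with an edgeR adjusted p of 0.00717. It was 1.98 ± 0.35 (SE) on low salt with enalapril, with an edgeR adjusted p of 0.00662. Leaving out macula densa replicate 1 or 2 on control diet gave edgeR adjusted p-values of 0.0521 and 0.0764 there, and leaving out replicate 2 on low salt with enalapril gave 0.0582 on that diet. Averaged over both diets it was 1.92 ± 0.24 (SE, edgeR adjusted p 0.000283).

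**Figure D2:**
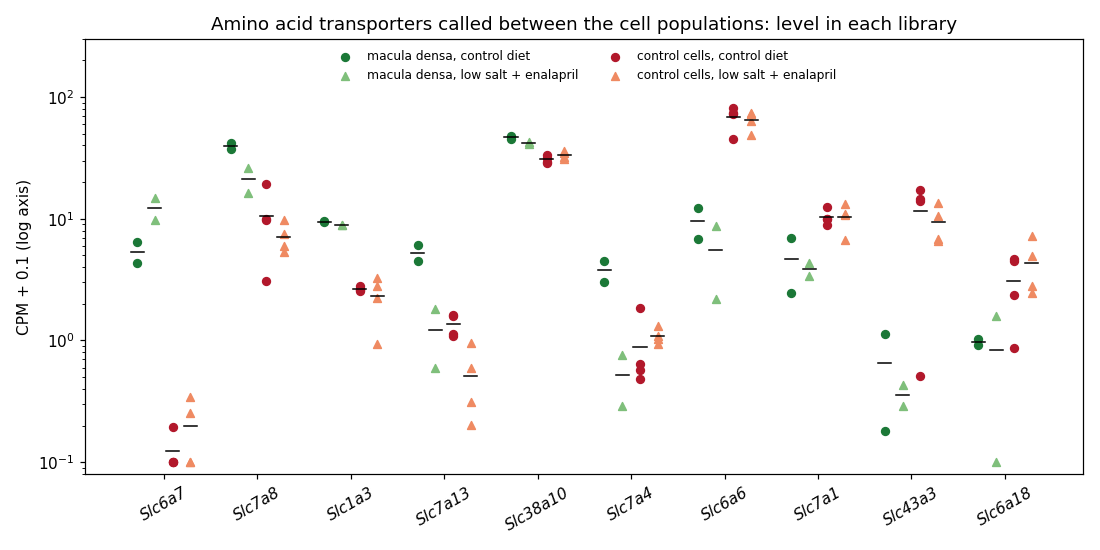
Level of the 10 transporters that passed between the cell populations in at least 1 comparison, as CPM plus 0.1 on a log y axis, with a point for each library, 4 groups side by side per gene and a short line at the group mean. The Slc6a7, Slc1a3 and Slc38a10 points of the macula densa groups lie above all control-cell points and those of Slc6a6 below, while 1 control-cell point of Slc43a3 lies among the macula densa points.

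Slc7a8 encodes LAT2, a light chain that exchanges neutral amino acids across the basolateral membrane of proximal tubule cells when paired with the heavy chain Slc3a2. The gene lies on the minus strand at chr14:54722209-54781946. In macula densa cells it measured 37.4 and 41.5 CPM on control diet and 26.1 and 16.2 CPM on low salt with enalapril. In control cells it measured 2.95, 9.77, 9.71 and 19.3 CPM on control diet and 9.68, 5.88, 5.25 and 7.32 CPM on low salt with enalapril. Macula densa libraries were the higher on each diet, and the highest control-cell value came from the replicate 4 that stood apart. In control-cell replicates 1 to 4 on control diet thick ascending limb markers summed to 220, 310, 1058 and 1660 CPM. On low salt with enalapril they summed to 828, 528, 1100 and 373 CPM, and their part in the values of Slc7a8 was not tested. The log2 fold change was 1.92 ± 0.48 (SE, edgeR adjusted p 0.0365) on control diet and 1.56 ± 0.50 (SE, edgeR adjusted p 0.0789) on low salt with enalapril. Averaged, it was 1.74 ± 0.35 (SE, edgeR adjusted p 0.00502). Without control-cell replicate 4 on control diet the edgeR adjusted p was 0.00297 on control diet, 0.0237 on low salt with enalapril and 0.000373 averaged. Leaving out macula densa replicate 1 or 2 on control diet gave 0.130 and 0.210 on control diet, and leaving out control-cell replicate 2 or 3 on control diet gave 0.0886 and 0.0907. For the same call, leaving out control-cell replicate 4 on low salt with enalapril gave 0.0528, and fitting only the compared groups gave 0.118, all from edgeR.

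The partner of Slc7a8 gave no call. Slc3a2, the CD98 heavy chain that carries several light chains to the plasma membrane, measured 18.6 and 21.3 CPM in macula densa cells on control diet and 18.6 and 21 CPM on low salt with enalapril. Its control-cell values were 14.4, 16.4, 14.0 and 8.88 CPM and then 27.0, 19.1, 33.2 and 19.6 CPM. On control diet both macula densa libraries lay above all 4 control-cell libraries (log2 fold change 0.57 ± 0.28 (SE), edgeR adjusted p 0.234). The groups overlapped on low salt with enalapril, where the fold change was negative (-0.32 ± 0.29 (SE), edgeR adjusted p 0.522), so the average was 0.13 ± 0.20 (SE, edgeR adjusted p 0.706). Other light chains of that heavy chain were far lower: Slc7a5 lay between 0.656 and 1.64 CPM in macula densa cells, Slc7a6 between 0 and 1.71 CPM and Slc7a7 between 0.492 and 2.53 CPM. None of these 3 passed on either diet or averaged, with averaged log2 fold changes of 0.46, -1.42 and 0.41. Slc43a2, a facilitated carrier of large neutral amino acids that needs no heavy chain, measured 33.8 to 40.1 CPM in macula densa cells. Its control-cell range of 10.4 to 67.6 CPM owed its top to replicate 4 on control diet, the next highest being 26.7 CPM. It did not pass (averaged log2 fold change 0.68, edgeR adjusted p 0.221), but was among the 12 members past the threshold without that replicate.

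Slc43a3 belongs to the same family by sequence but is known as a purine nucleobase carrier, and it was lower in macula densa cells. The gene is on the plus strand at chr2:84936579-84958509. It measured 1.03 and 0.0815 CPM in macula densa cells on control diet and 0.192 and 0.328 CPM on low salt with enalapril. Control cells measured 14.3, 17.1, 14.0 and 0.413 CPM on control diet and 6.69, 10.5, 6.51 and 13.3 CPM on low salt with enalapril. Of the 8 control-cell libraries, 7 lay above every macula densa library, and the exception was again replicate 4 on control diet. On control diet 464 counts in control cells stood against 11, a scaled ratio of 23.2 with a 95% counting interval from 12.9 to 46.9. On low salt with enalapril 292 counts stood against 3, a ratio of 34.8 with an interval from 11.8 to 170. The edgeR adjusted p was 0.0457 on control diet, 0.0523 on low salt with enalapril and 0.00438 averaged. Without replicate 4 these were 0.000655, 0.00147 and 2.96e-05. The call on control diet was lost under 15 of 22 alternatives, and leaving out any 1 of the other 11 libraries ended it. The averaged call was lost in limma voom only (adjusted p 0.120).

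Endothelium markers moved with Slc43a3, which was at or below 1.03 CPM in the 5 libraries with the lowest marker sums and at or above 6.51 CPM in the other 7. In control-cell replicates 1 to 4 on control diet the 9 markers summed to 1520, 1257, 828 and 51.6 CPM, and on low salt with enalapril to 352, 911, 268 and 1176 CPM. In macula densa cells they summed to 175 and 24.1 CPM on control diet and to 13.4 and 10.3 CPM on low salt with enalapril, where Plvap was at 0 in both libraries. All 9 markers were past the edgeR threshold and lower in the averaged comparison, 5 of them without macula densa replicate 2 on low salt with enalapril and 4 in limma voom. Their part in the result for Slc43a3 was not tested.

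**Figure D3:**
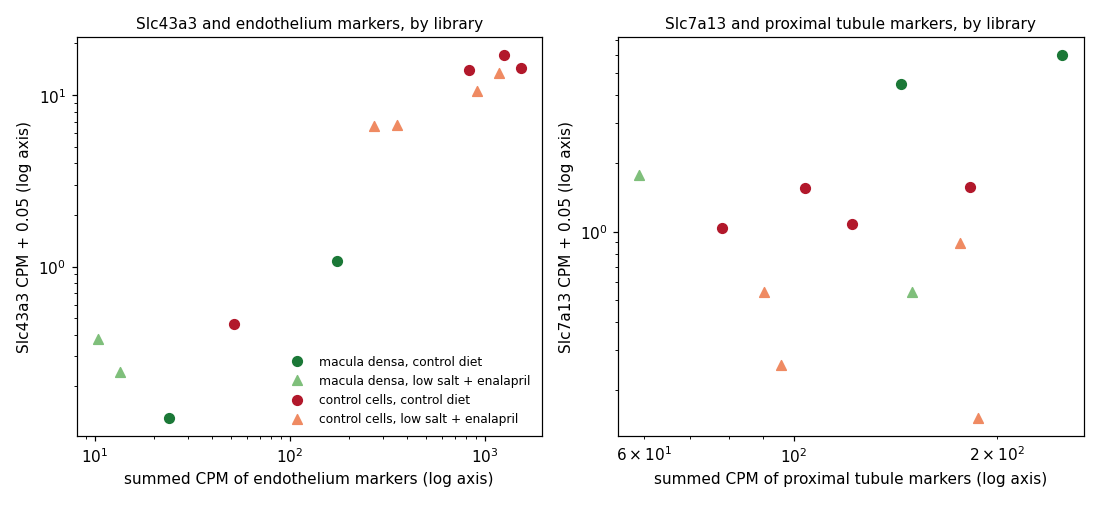
Level of Slc43a3 against the summed CPM of endothelium markers, and of Slc7a13 against that of proximal tubule markers, with log axes and a point for each of the 12 libraries coloured by group. Slc43a3 is low in the 5 libraries with the fewest endothelium counts, while Slc7a13 reaches its highest values in the macula densa libraries on control diet.

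Slc6a6, the sodium-driven carrier that takes up taurine, an organic osmolyte of kidney cells, showed the reverse pattern to Slc6a7. The gene is on the plus strand at chr6:91684053-91759066, and 117 bases of its exons overlap Gm44981 on the opposite strand, which the counting is not stated to separate. It measured 12.1 and 6.76 CPM in macula densa cells on control diet and 2.11 and 8.69 CPM on low salt with enalapril. Control cells measured 80.9, 74.2, 71.9 and 45.1 CPM on control diet and 72.5, 63.2, 48.3 and 73.2 CPM on low salt with enalapril. The lowest control-cell library was above the highest macula densa library. The log2 fold change was -2.85 ± 0.48 (SE, edgeR adjusted p 0.00584) on control diet and -3.56 ± 0.52 (SE, edgeR adjusted p 0.00243) on low salt with enalapril. Averaged, it was -3.20 ± 0.35 (SE, edgeR adjusted p 0.000126). Leaving out macula densa replicate 2 on control diet ended the call on that diet (edgeR adjusted p 0.126). In control-cell replicate 4 on control diet podocyte and endothelium markers summed to 42.5 and 51.6 CPM, and Slc6a6 was at 45.1 CPM. In control-cell replicates 1 to 4 on control diet principal cell markers summed to 134, 303, 463 and 900 CPM and podocyte markers to 1427, 1129, 716 and 42.5 CPM. On low salt with enalapril principal cell markers summed to 364, 187, 104 and 284 CPM and podocyte markers to 138, 1128, 218 and 946 CPM. Principal cell markers summed to 11.3 to 41.5 CPM in macula densa cells. The part of these marker sums in the result was not tested.

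No other member of the osmolyte and creatine group gave a call. Slc6a8, the creatine carrier, measured 7.85 to 13.5 CPM in macula densa cells and 4.05 to 10.1 CPM in control cells (averaged log2 fold change 0.73 ± 0.25 (SE), edgeR adjusted p 0.0585). Slc6a12, the betaine carrier, was below the count filter. In the averaged comparison 13.9% of all genes were lower in macula densa cells and 7.48% higher. Of 8 osmotic response genes, 4 were lower in macula densa cells averaged over both diets and 0 higher, with a median log2 fold change of -0.36 against -0.06 for all genes. These were Nfat5, the factor that drives osmolyte genes under hypertonicity (-0.71, edgeR adjusted p 0.00559), Akr1b3, which makes sorbitol (-1.31, edgeR adjusted p 0.0218), the urea carrier Slc14a2 (-4.86, edgeR adjusted p 0.000625) and the water channel Aqp2 (-4.27, edgeR adjusted p 0.000833). Aqp2 is also one of the principal cell markers, all 8 of which were lower by edgeR and 5 by limma voom. The myo-inositol carrier Slc5a3 and the heat shock genes of the list did not pass. Without control-cell replicate 4 the count was 4 lower and 1 higher, and with library totals alone 3 lower and 1 higher.

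Among the cationic carriers, Slc7a1, the general arginine and lysine carrier CAT1, was lower in macula densa cells. Its position is chr5:148327410-148399904, on the minus strand. It measured 2.36 and 6.84 CPM in macula densa cells on control diet and 4.21 and 3.28 CPM on low salt with enalapril. Control cells measured 9.84, 8.83, 9.90 and 12.4 CPM on control diet and 13.1, 6.61, 10.7 and 10.8 CPM on low salt with enalapril. No macula densa library reached the control cells of its diet, and the log2 fold change was -1.14 ± 0.39 (SE, edgeR adjusted p 0.0980) and -1.48 ± 0.42 (SE, edgeR adjusted p 0.0522). Averaged, it was -1.31 ± 0.29 (SE, edgeR adjusted p 0.00769). Slc7a2, the inducible arginine carrier CAT2, did not pass (averaged log2 fold change -1.10, edgeR adjusted p 0.381), nor did Slc7a3, with at most 1.72 CPM in any library.

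Slc7a4 resembles the cationic carriers but has no settled substrate. Its position, on the minus strand, is chr16:17572018-17583214, and 554 bases of its exons overlap P2rx6 on the opposite strand, so its count is uncertain. It measured 4.41 and 2.93 CPM in macula densa cells on control diet but 0.192 and 0.656 CPM on low salt with enalapril. Control cells measured 0.547, 0.470, 0.381 and 1.76 CPM and then 0.922, 0.979, 0.840 and 1.22 CPM. Macula densa cells were thus above control cells on control diet (log2 fold change 2.20 ± 0.59 (SE), edgeR adjusted p 0.0462). On low salt with enalapril both libraries were below all 4 control-cell libraries, with a log2 fold change of -1.18 ± 0.80 (SE, edgeR adjusted p 0.382). The call on control diet was lost under 12 of 21 alternatives, with edgeR adjusted p-values of 0.236 and 0.167 without macula densa replicate 1 or 2 on control diet.

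The arginine and nitric oxide enzymes gave a mixed count. Of 11 tested, 3 were higher in macula densa than in control cells and 3 lower, as an average over both diets. Among all genes 7.48% were higher and 13.9% lower. The median log2 fold change of the list was -0.16, and scaling by the library totals gave 3 higher and 1 lower. Leaving out any 1 macula densa library left 2 or 3 higher and 1 lower, as did leaving out control-cell replicate 4 on low salt with enalapril, and without macula densa replicate 2 on that diet the median was -0.67. Higher were Nos1, the neuronal nitric oxide synthase (8.26, edgeR adjusted p 7.87e-09), Ass1, which remakes arginine from citrulline (1.64, edgeR adjusted p 0.00146), and Odc1, the first enzyme of polyamine synthesis (0.80, edgeR adjusted p 0.0104). Lower were Oat, ornithine aminotransferase (-1.0, edgeR adjusted p 0.0291), and the nitric oxide synthases Nos3 and Nos2. Nos1 drives the recombinase used for the sort, so its value is no separate finding. Nos3, the endothelial form, and Nos2 had 0 counts in both macula densa libraries on low salt with enalapril, where endothelium markers were also lowest, with edgeR adjusted p-values of 0.00958 and 0.0478. The part of the endothelium markers in these 2 was not tested.

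The apical carriers of the proximal tubule split. Slc7a13, which exchanges aspartate, glutamate and cystine, lies on the plus strand at chr4:19818725-19842218. It measured 4.41 and 5.95 CPM in macula densa cells on control diet and 1.72 and 0.492 CPM on low salt with enalapril. Control cells measured 0.984, 1.5, 1.52 and 1.03 CPM and then 0.845, 0.490, 0.210 and 0.102 CPM. Macula densa libraries were above control cells on control diet, and on low salt with enalapril 1 control-cell library lay between the macula densa values. The log2 fold change was 2.02 ± 0.56 (SE, edgeR adjusted p 0.0519), 1.28 ± 0.73 (SE, edgeR adjusted p 0.295) and, averaged, 1.65 ± 0.46 (SE, edgeR adjusted p 0.0254). The averaged call was lost without macula densa replicate 1 on low salt with enalapril (0.219), and without macula densa replicate 1 or 2 on control diet (0.0502 and 0.0948), by edgeR.

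Slc6a18, an apical carrier of glycine and other neutral amino acids, went the other way. It lies on the minus strand at chr13:73661752-73678023. It measured 0.923 and 0.815 CPM in macula densa cells on control diet and 0 and 1.48 CPM on low salt with enalapril, against 0.765, 2.25, 4.38 and 4.55 CPM and 7.15, 2.69, 4.83 and 2.34 CPM in control cells. The groups overlapped on control diet only. The averaged log2 fold change was -2.12 ± 0.65 (SE, edgeR adjusted p 0.0354). It did not pass on either diet alone (edgeR adjusted p 0.233 and 0.132), and 9 of 20 alternatives ended the averaged call. Among them were the fits without macula densa replicate 1 or 2 on control diet (0.0956 and 0.118), macula densa replicate 1 on low salt with enalapril (0.0865), control-cell replicates 2 or 3 on control diet (0.0505 and 0.0664) and control-cell replicate 1 on low salt with enalapril (0.0639), all from edgeR.

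The other 5 tested apical carriers did not pass. Slc1a1, the epithelial glutamate carrier, measured 3.90 to 10.5 CPM in macula densa and 4.32 to 12.1 CPM in control cells (averaged log2 fold change -0.04, edgeR adjusted p 0.941). Its exons share 2631 bases with 4430402I18Rik on the opposite strand. Slc6a19, the main neutral amino acid carrier of the brush border, measured 1.23 to 2.607 CPM against 0.470 to 2.44 CPM. Slc7a9, the light chain of the cystine carrier, measured 0.383 to 3.77 CPM against 0.245 to 1.22 CPM. Its heavy chain Slc3a1 was at most 2.69 CPM in any library, with 601 exon bases shared with Prepl. Slc6a20b, an imino acid carrier whose counts cannot be parted with certainty from its near copy Slc6a20a, measured 0.821 to 2.28 CPM against 0.210 to 1.43 CPM (averaged edgeR adjusted p 0.0675). Its exons also share 1800 bases with Sacm1l on the opposite strand, which adds to that uncertainty.

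Proximal tubule markers were present in all 12 libraries. The 14 markers summed to 144 and 250 CPM in macula densa cells on control diet, 59.0 and 150 CPM on low salt with enalapril, 78.1 to 183 CPM in control cells on control diet and 90.3 to 187 CPM on low salt with enalapril. Averaged over both diets, 7.48% of all genes tested were higher in macula densa cells and 13.9% lower. Of the 14 markers, 3 were higher (Slc5a12, Slc13a3 and Acsm2) and 1 was lower (Aqp1), with a median log2 fold change of 1.04. The higher count was 0 without macula densa replicate 1 or 2 on control diet or replicate 2 on low salt with enalapril, where the median was 0.41 in the last case. It was 1 without control-cell replicate 1 or 2 on control diet or on low salt with enalapril, and 2 without control-cell replicate 3 on low salt with enalapril. No marker of the list was at 0 throughout a group. The part of these markers in the values of the apical carriers was not tested.

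Slc38a10, a relative of the glutamine carriers that lies largely on inner membranes, was among the 3 highest transporters per exon length in all 4 groups. It lies on the minus strand at chr11:120103960-120151346 and shares 367 exon bases with Gm11769 on the opposite strand. It measured 48.1 and 44.7 CPM in macula densa cells on control diet and 42.7 and 41.3 CPM on low salt with enalapril. Control cells measured 33.2, 31.6, 28.4 and 29.2 CPM and then 32.2, 30.6, 34.9 and 36.1 CPM. All 4 macula densa libraries were above all 8 control-cell libraries, but the difference was small, with log2 fold changes of 0.60 ± 0.17 (SE, edgeR adjusted p 0.0543) and 0.33 ± 0.17 (SE, edgeR adjusted p 0.252). Averaged, it was 0.46 ± 0.12 (SE, edgeR adjusted p 0.0175). Leaving out any 1 of the 4 macula densa libraries raised that edgeR adjusted p to between 0.0529 and 0.0864, and testing without the count filter gave 0.0581.

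The other 5 tested lysosomal and intracellular carriers did not pass. They were the proton-coupled carrier Slc36a1, its relative Slc36a4, the lysosomal glutamine carrier Slc38a7, the lysosomal arginine sensor Slc38a9 and the little-known Slc38a6. Their averaged edgeR adjusted p-values ran from 0.211 to 0.959. Slc38a9 measured 4.51 to 5.75 CPM in macula densa and 4.13 to 8.81 CPM in control cells. Of 31 genes of amino acid sensing by mTORC1, the growth kinase complex that Slc38a9 informs, 2 were higher in macula densa than in control cells and 1 lower, as an average over both diets. These were the GTPase Rragd (log2 fold change 1.44, edgeR adjusted p 0.0190), the folliculin partner Fnip1 (0.70, edgeR adjusted p 0.0111) and the sestrin Sesn1 (-1.0, edgeR adjusted p 0.0278). The median of the list was 0.04, and 21.3% of all genes passed in that comparison. The count was 0 higher and 0 lower without macula densa replicate 1 on control diet or replicate 2 on low salt with enalapril, 1 and 0 without the other macula densa library on control diet, and 2 and 0 once control-cell replicate 2 on control diet was left out. With library totals alone it was 4 higher and 0 lower.

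None of the 4 tested neutral and glutamine carriers passed in any comparison. Slc1a5, the sodium-dependent exchanger of glutamine and alanine, measured 12.8 and 13.4 CPM in macula densa cells on control diet and 8.43 and 20.7 CPM on low salt with enalapril. In control cells it measured 1.53, 4.42, 5.43 and 11.3 CPM and then 6.99, 3.67, 12.8 and 5.19 CPM (averaged log2 fold change 1.12 ± 0.43 (SE), edgeR adjusted p 0.0823), and without control-cell replicate 4 on control diet it was past the threshold. Slc38a2, the adaptive glutamine and alanine carrier, measured 11.5 to 19.96 CPM against 16.7 to 38.2 CPM (averaged log2 fold change -0.65 ± 0.23 (SE), edgeR adjusted p 0.0664). Its close relative Slc38a1 measured 0.984 to 4.62 CPM against 2.38 to 5.88 CPM, and Slc38a4 at most 2.19 CPM.

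Enzymes that use glutamine, glutamate or glutathione differed in both directions. Of 12 tested, 3 were higher in macula densa than in control cells and 2 lower, as an average over both diets, with a median of 0.07. In that comparison 7.48% of all genes were higher and 13.9% lower. Without control-cell replicate 4 on control diet 4 of the 12 were higher and 2 lower. Scaling by the library totals gave 5 higher and 1 lower, and leaving out 1 library gave 2 to 4 higher and 1 or 2 lower. Among the higher were Glud1, glutamate dehydrogenase (log2 fold change 0.58, edgeR adjusted p 0.0111), and Ggt1, which cleaves glutathione outside the cell (1.5, edgeR adjusted p 0.00740). Lower were Anpep, an aminopeptidase of the brush border and of endothelium (-3.17, edgeR adjusted p 0.00102), and Glul, glutamine synthetase (-1.38, edgeR adjusted p 0.0415).

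Of 18 amino acid and peptide carriers of other families in the table, 13 were tested, and 2 were higher in macula densa than in control cells and 1 lower, as an average over both diets, with a median of 0.32, where 21.3% of all genes passed. Without macula densa replicate 2 on low salt with enalapril the lower call was lost and the median was 0.09, and without macula densa replicate 2 on control diet the median was 0.17. In limma voom the lower call was also lost. Slc16a10, the basolateral uniporter of aromatic amino acids, measured 6.98 and 14.6 CPM in macula densa cells on control diet and 11.9 and 19.0 CPM on low salt with enalapril. Its 8 control-cell values ran from 1.83 to 5.58 CPM, below every macula densa library (averaged log2 fold change 1.86 ± 0.28 (SE), edgeR adjusted p 0.00103). It passed on each diet alone, with edgeR adjusted p-values of 0.0441 and 0.00827. Slc15a1, a proton-coupled carrier of small peptides, held 31 counts in macula densa cells and 5 in control cells on control diet and 45 and 9 on low salt with enalapril (averaged log2 fold change 3.51, edgeR adjusted p 0.00211). Slc15a3, a lysosomal histidine and peptide carrier of leukocytes, was lower, with 3 and 0 counts in macula densa cells on the 2 diets (edgeR adjusted p 0.0181). Summed leukocyte markers lay between 2.79 and 8.0 CPM in macula densa and between 6.09 and 137 CPM in control cells, and their part was not tested.

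Of 17 tested genes of the response to amino acid shortage that the factor Atf4 drives, 6 were lower and 1 was higher in macula densa cells averaged over both diets. The median was -0.82 against -0.06 over all genes, and without control-cell replicate 4 on control diet the count was 6 lower and 0 higher. Among all genes 13.9% were lower and 7.48% higher. The lower count was 4 to 6 when 1 library was left out, with 4 and a median of -0.56 when that was macula densa replicate 2 on control diet, and leaving out macula densa replicate 2 on low salt with enalapril moved the median to -0.43. The 1 higher call was lost in 10 of these 12 fits. The largest was Nupr1, a stress-induced chromatin protein, with 2.10 ± 1.82 and 1.26 ± 0.388 CPM (SD, n = 2 each) in macula densa cells on the 2 diets and 12.6 ± 4.35 and 18.1 ± 7.38 CPM (SD, n = 4 each) in control cells (log2 fold change -3.23, edgeR adjusted p 0.000615). Atf3, a stress-induced partner of Atf4 (-1.95, edgeR adjusted p 0.000768), Ppp1r15a, which restarts translation (-1.57, edgeR adjusted p 0.000705), and Atf4 itself (-0.90, edgeR adjusted p 0.00612) were lower as well. So were Phgdh and Psat1, enzymes of serine synthesis, while Aldh18a1, an enzyme of proline synthesis, was higher (1.21, edgeR adjusted p 0.0461). Among 6 accessory proteins and regulators, Sgk1, a kinase of sodium transport, was lower (-4.17, edgeR adjusted p 0.00336), and Cltrn, which brings apical carriers to the surface, did not pass.

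In the remaining groups, Slc1a2, the second astrocyte glutamate carrier, measured 1.92 to 4.59 CPM in macula densa and 0 to 3.07 CPM in control cells (averaged edgeR adjusted p 0.197). Slc6a17, a vesicular carrier of neutral amino acids in neurons, measured 12.4 and 16.5 CPM in macula densa cells on control diet and 7.47 and 5.09 CPM on low salt with enalapril, against 3.85 to 15.8 CPM in control cells (averaged edgeR adjusted p 0.499). Slc6a9, the glycine carrier GlyT1, is described with the diets below.

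A total of 16 members fell below the count filter and were not tested. They included Slc1a4, Slc36a3, Slc38a3, Slc38a11, Slc6a2, Slc6a4, Slc6a5, Slc6a12, Slc6a14, Slc6a15, Slc6a20a, Slc6a21, Slc7a11, Slc7a14 and Slc7a15, and the sums of the 16 over 12 libraries ran from 11 counts for Slc36a3 to 58 for Slc7a11. The monoamine carriers Slc6a2 and Slc6a4, the glycine carrier Slc6a5 and the cystine exchanger Slc7a11 were thus near the limit of detection at this depth in both populations. Slc6a14, a carrier of neutral and basic amino acids, held 20 counts in macula densa and 4 in control cells on control diet, a scaled ratio of 9.07 with a 95% counting interval from 3.04 to 36.5, and 4 and 7 counts on low salt with enalapril.

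Levels of different genes can be set side by side only per length, here as CPM per kb of exon in the GENCODE M21 annotation. In macula densa cells on control diet the order of mean level was Slc7a8 at 7.88 ± 0.57, Slc38a10 at 7.23 ± 0.37, Slc3a2 at 5.65 ± 0.56, Slc43a2 at 3.98 ± 0.0195 and Slc1a5 at 3.15 ± 0.105 (SD, n = 2). The ranges of mean ± SD of Slc7a8 and Slc38a10 overlapped. On low salt with enalapril Slc38a10 (6.55 ± 0.15) and Slc3a2 (5.61 ± 0.48) ranked 1 and 2, Slc7a8 (4.23 ± 1.39) ranked 3 and Slc6a7 (3.53 ± 1.06, SD, n = 2) ranked 5. In control cells Slc6a6 led on both diets, at 8.05 ± 1.86 and 7.60 ± 1.37 CPM per kb (SD, n = 4), and accounted for 20.05% and 17.3% of the summed length-scaled level of all 51 members. In macula densa cells it accounted for 2.22% and 1.52% and ranked 11 and 14. Slc7a8 made up 15.7% of that sum in macula densa cells on control diet and 5.20% in control cells, and Slc6a7 made up 3.06% against 0.0172%.

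**Figure D4:**
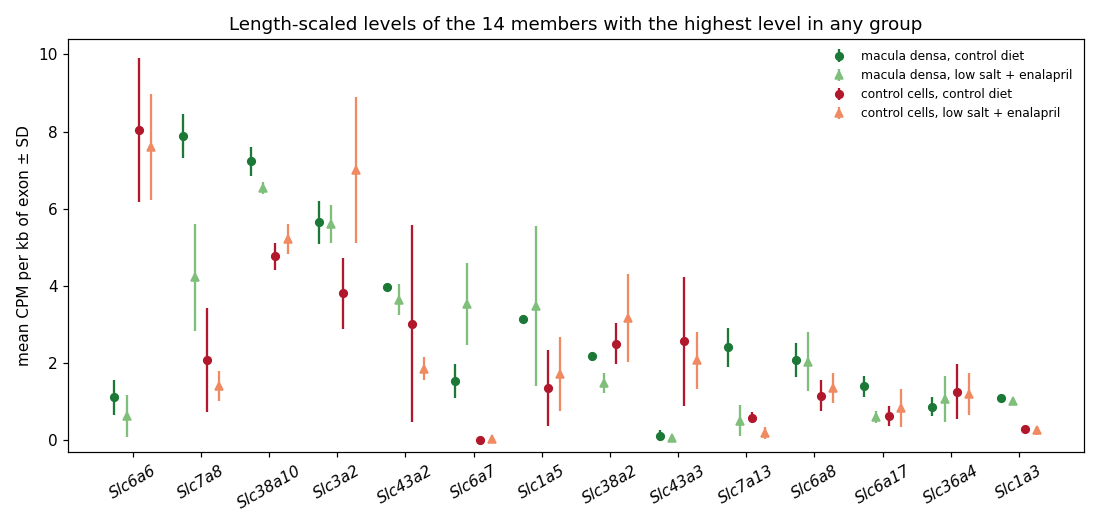
Mean CPM per kb of exon with bars of 1 SD for the 14 transporters with the highest mean level in any group, 4 groups side by side. Slc6a6 is the highest of all in both control-cell groups and low in both macula densa groups, while Slc7a8, Slc38a10 and Slc3a2 lead in macula densa cells on control diet.

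Counted library by library, 4 members were higher in macula densa than in control cells without overlap on both diets (Slc1a3, Slc38a10, Slc6a7 and Slc7a8), where 6.02% of all genes tested were. In the opposite direction there were 2 (Slc6a6 and Slc7a1), against 7.6% of all genes.

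The second question was what low salt with enalapril changed. No transporter passed in macula densa cells (0% of all genes did), in control cells (0.00705% of all genes, which is Ren1 alone) or in the difference between the 2 diet effects (0% of all genes). Ren1, the renin gene, rose in control cells from 1.88 to 6.19 CPM over the control diet libraries to 42.7 to 135 CPM on low salt with enalapril (edgeR adjusted p 0.00476). The smallest edgeR adjusted p among the 35 tested members was 0.269 in macula densa cells, 0.375 in control cells and 0.597 for the difference. At an unadjusted edgeR p under 0.05 there were 4, 3 and 7 members, against 11.2%, 6.45% and 7.03% of all genes tested, and by DESeq2 there were 0, 1 and 0 at an adjusted p of 0.05. The 1 was Slc6a9 in control cells (DESeq2 adjusted p 0.0428). The median log2 change was -0.28 in macula densa cells, where 24 of 35 members were negative, and 0.23 in control cells, where 24 of 35 were positive. Over all genes these medians were -0.02 and -0.04. The difference of the diet effects had a median of -0.40 over members and -0.01 over all genes.

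The values below belong to members with the 5 smallest p-values in a diet comparison, none of which passed. In macula densa cells, Slc7a4 went from 4.41 and 2.93 CPM to 0.192 and 0.656 CPM (log2 change -3.03 ± 0.83 (SE), edgeR adjusted p 0.269), and Slc7a13 from 4.41 and 5.95 CPM to 1.72 and 0.492 CPM (-2.24 ± 0.74 (SE), edgeR adjusted p 0.322). Slc3a1, the heavy chain of the cystine carrier, went from 0.923 and 2.69 CPM to 0.192 and 0.328 CPM, or from 42 counts to 3 (edgeR adjusted p 0.352). The summed proximal tubule markers went from 144 and 250 CPM to 59.0 and 150 CPM over the same libraries, with 13 of 14 negative and 0 past the threshold, and their part in these values was not tested. Slc38a6 went from 5.44 and 4.24 CPM to 2.87 and 0.656 CPM (edgeR adjusted p 0.362), and Slc38a1 from 4.62 and 1.87 CPM to 1.72 and 0.984 CPM (edgeR adjusted p 0.450). In each of these 5 the treated libraries lay below the control diet libraries. Slc6a7 lay above them on low salt with enalapril (log2 change 1.20 ± 0.56 (SE), edgeR adjusted p 0.452). In all, 13 members lay lower and 2 higher without overlap, where 40.6% of all genes did not overlap, 21.8% lower and 18.8% higher, with 2 libraries against 2.

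In control cells the smallest p belonged to Slc6a9, the glycine carrier. It measured 0.984, 0.658, 1.71 and 1.14 CPM on control diet and 3.23, 3.67, 4.83 and 2.34 CPM on low salt with enalapril, all 4 above the control diet libraries (log2 change 1.61 ± 0.39 (SE), edgeR adjusted p 0.375). A total of 1986 of its exon bases overlap Gm17114, Ccdc24 and B4galt2 on the opposite strand, so its count is uncertain. The heavy chain Slc3a2 likewise lay higher in all 4 treated libraries (0.88 ± 0.23 (SE), edgeR adjusted p 0.439), from 8.88 to 16.4 CPM on control diet to 19.1 to 33.2 CPM. Slc7a13 lay lower in all 4 (-1.49 ± 0.58 (SE), edgeR adjusted p 0.694). Slc6a19 (0.83) and Slc3a1 (0.96) had edgeR adjusted p-values of 0.922, and their diets overlapped. Diets did not overlap in control cells for 4.2% of all genes tested and for 3 members.

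For the difference between the diet effects, the 5 smallest p-values were those of Slc7a4 (-3.38 ± 1.0 (SE)), Slc3a1, Slc6a9 (-2.09 ± 0.70 (SE)), Slc38a1 (-1.61 ± 0.69 (SE)) and Slc38a6 (-1.54 ± 0.66 (SE)), with edgeR adjusted p-values from 0.597 to 0.688. All 5 were more negative in macula densa than in control cells. Of the 7 lists of related genes, 0 genes passed in any of the 3 diet comparisons.

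**Figure D5:**
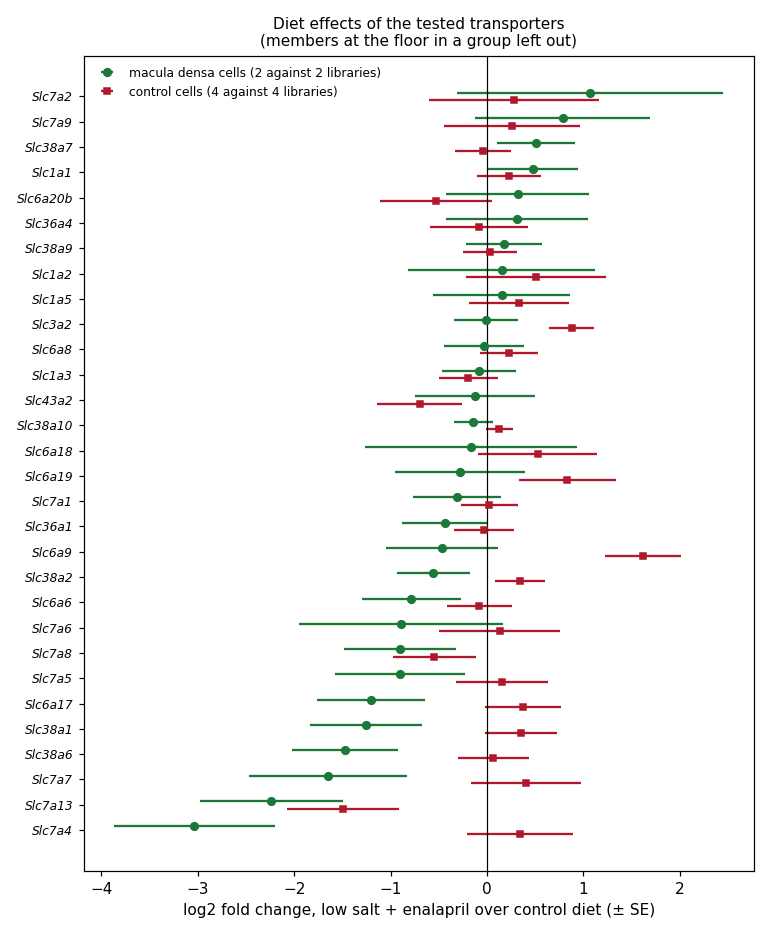
Log2 change with low salt with enalapril over control diet for 30 tested transporters on the y axis, in macula densa cells (green circles) and control cells (red squares), with bars of 1 standard error; the 5 members with at most 3 counts in every library of a group are left out. Slc7a4 and Slc7a13 have the most negative macula densa values, Slc6a9 the most positive control-cell value, and no point passed the threshold.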

How the data were processed

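The 12 libraries were sequenced as bulk RNA. Per the labels' protocols they were made at one time from total RNA with a strand-keeping low-input kit. The authors deposited estimated counts per gene (expected counts, 16.1% of values not whole), and per the submitters' processing notes STAR 2.61, Partek and the mm10 build were used, with roles, annotation and filters not given in the sources used here. The smallest sum of a gene over the libraries was 10. Symbols, starts and ends of 23351 of 23378 genes, all 51 members included, equalled those of GENCODE M21 (GRCm38) once 1 was taken from the table's end coordinates. Counting is not stated to use strand. Besides the members named with such an overlap above, exons of Slc1a2, Slc38a9, Slc43a2, Slc7a2 and Slc7a7 overlap genes of the opposite strand.

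Counts were rounded, filtered (filterByExpr, count minimum 10, total minimum 15, leaving 14180 genes) and scaled (TMM). They were fitted with edgeR 4.0.16 in R 4.3.3 (quasi-likelihood, 1 coefficient per group, all 12 libraries), with Benjamini-Hochberg adjustment at 0.05 in 6 comparisons. The fit was also run on simulated counts, with changes placed in well-counted genes only and no library that stood apart. That run therefore cannot show how reliable the calls on low-count members are. Groups came from the labels. A member with at most 3 counts in every library of a group was treated as at the floor. Pooled count ratios with 95% exact binomial intervals are given for Slc6a7, Slc43a3 and the untested Slc6a14, but not for the other members at the floor. Per-library values are given for members past the threshold in any comparison, otherwise for the 5 smallest p-values of that comparison. List genes are named where they passed, at most 4 per direction. The members, gene lists and tests were chosen with earlier results of these data known, and lists are described by counts and medians only. All 8 role lists, 7 lists of related genes and 11 marker lists were computed over all groups. Of the marker lists not described with a result, summed macula densa markers were 2118 to 3068 CPM in macula densa and 42.8 to 434 CPM in control cells, and thick ascending limb markers 2511 to 4386 and 220 to 1660 CPM. Sums in macula densa and control cells were 136 to 213 and 108 to 933 CPM for distal convoluted and connecting tubule, 18.9 to 37.6 and 23.0 to 383 CPM for intercalated cells, 19.7 to 166 and 42.5 to 1427 CPM for podocytes, 4.10 to 27.1 and 29.6 to 147 CPM for fibroblasts and mesangium, and 22.0 to 42.7 and 123 to 592 CPM for smooth muscle and renin cells. Alternatives used DESeq2 1.42.0, limma 3.58.1 (voom), other scalings and filters, blocks for numbers in the labels, a threshold of 0.01 and leaving out each library. No replicate pair agreed within counting noise. Promoter sequences are from RefSeq. A few genes of the lists and 1 member are counted but not reported by name here.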

Additional observations from a re-analysis of the deposited data

Results flagged for a closer look

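A single library far from the rest of its group was looked for on the scale of log2 (CPM + 0.5) in 67 sets, each a member in the 4 control-cell libraries of a diet. It was found in 3, where chance alone gives about 5% of sets. Slc43a3, the nucleobase carrier, read -0.13 in replicate 4 of the control cells on control diet (4 counts, 0.413 CPM) and between 3.86 and 4.14 in the other 3 libraries. The same library had the lowest sums of podocyte and endothelium markers. Slc3a1, the heavy chain of the cystine carrier, read 1.02 in replicate 3 of that group (16 counts, 1.52 CPM) and between -0.09 and 0.09 in the others. Slc7a6, a light chain that exchanges cationic for neutral amino acids, read 0.46 in replicate 1 of that group (8 counts, 0.875 CPM) and between 1.46 and 1.53 in the others. The last 2 rest on few counts.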

How the results depend on the processing

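For the number of members called on control diet (6), limma voom gave 11 and a threshold of 0.01 gave 3. Leaving out 1 library gave 1 to 11: 1 without macula densa replicate 2, 2 without macula densa replicate 1, 3 without control-cell replicate 2 or 3 and 11 without control-cell replicate 4, all of that diet. On low salt with enalapril (3), the DESeq2 Wald test gave 9 and the fit of only the compared groups 7, and leaving out 1 library gave 2 (without macula densa replicate 2 of that diet) to 6, with 5 without macula densa replicate 1 or 2 on control diet. Averaged over both diets (9), leaving out 1 library gave 6 (without macula densa replicate 2 on control diet) to 12. In the diet comparisons the count was 0 throughout except for 1 by DESeq2 in control cells. The averaged Slc7a4 fold change (0.51, edgeR adjusted p 0.525) ranged from -0.051 to 0.884 when 1 library was left out, reversing without macula densa replicate 2 on low salt with enalapril (edgeR adjusted p 0.96). Whether the numbers in the labels pair samples is not stated there. Deviations of the 4 pairs sharing a number in the descriptions correlated at -0.037 to 0.227, and those sharing one in the titles at -0.377 to 0.278, so the main fit has no block, which does not show that samples are unpaired. With a replicate block for the titles the counts were 2 (Slc6a6 and Slc6a7), 3 and 8, and the control diet calls of Slc1a3 and Slc7a8 had edgeR adjusted p-values of 0.0682 and 0.0799. With a replicate block for the descriptions (8 libraries, 4 pairs) the counts were 9, 7 and 12. Slc1a5 and Slc43a2 passed in all 3 there, higher in 4 of 4 pairs, Slc6a17 on control diet and averaged, and Slc6a8 averaged, while Slc6a18 did not pass. The difference of the diet effects gave 0 under both blocks, and diets within a population cannot be compared under the second. Over all 6 counts and their alternatives, 119 values stayed within 1.5 times and 15 moved further. The diet counts, all 0 in the main fit, are part of this tally, and 0 against 0 was taken as unchanged. The tally therefore does not measure how stable the counts between the cell populations were. For single genes 870 kept their side of the threshold, 66 lost it, 38 gained it and 1 reversed. Most single-gene results in this tally were no calls in the main fit, and staying without a call counted as kept. Only calls could be lost, so the tally does not measure how stable the calls were. The cause of the changes in counts and single genes was not tested. The number of all genes called under each alternative is not given here, so shifts in the counts are not read as particular to the transporters. Low counts limit most members, so an absent call does not show an absent difference.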
